A study of Homo sapiens with 6 samples.

Results

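Splicing factors and the kinases that phosphorylate them were followed through heating and X-irradiation of A549, a long-established line from a human lung adenocarcinoma. The genes were taken by symbol from the platform annotation: protein-coding genes of the CLK and SRPK kinase families, the SR proteins (SRSF), the heterogeneous nuclear ribonucleoproteins (HNRNP), the SNRP proteins of the small nuclear ribonucleoproteins, the PRPF spliceosome proteins and the numbered RBM proteins. This gave 95 of 14884 named genes, made up of 4 CLK, 3 SRPK, 10 SRSF, 21 HNRNP, 11 SNRP, 10 PRPF and 36 RBM genes. The rule also asks for SF3A and SF3B genes, which are not analysed here. A gene with several array features was represented by the brightest of them on average.

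Each of 6 Affymetrix arrays held RNA of a group of its own. Per the labels' protocols, all cells had 24 h of growth at 37 °C before treatment. Heating lasted 1 h, at 41.5 °C or at 44 °C, followed by 3 h back at 37 °C. Irradiation was with 3 Gy of X-rays, followed by 3 h at 37 °C, and in the combined groups it came straight after the heat, with no later time stated. The groups were thus 41.5 °C with 3 Gy, 41.5 °C alone, 44 °C with 3 Gy, 44 °C alone, 3 Gy alone and an untreated control. The control has no stated time after the first 24 h, so time in culture may differ between it and the others. Time since heat may likewise differ between the combined and the heat-alone array of a temperature. A difference with radiation on the heated arrays cannot be told apart from such a difference in time. Levels are log2 values as deposited by the authors, and a level of 1 gene cannot be set against that of another, because probes differ. With 1 array a group, the tests came from an additive limma model of temperature and radiation over all 6 arrays, which gives 2 arrays at each temperature. The labels do not state whether the cultures were separate, and p-values here cover the array-to-array spread alone, part of which may be technical. A gene is called at an adjusted p under 0.05, with Benjamini-Hochberg adjustment over all 14884 genes.

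Array medians over all 53617 features lay between 4.39 and 4.46. Of the epithelial markers, KRT18 lay between 11.43 and 11.58, KRT7 between 7.30 and 7.73, KRT8 between 6.28 and 6.83, EPCAM between 5.92 and 6.47 and KRT19 between 4.33 and 4.54. Of the alveolar markers, SFTPB lay between 4.90 and 5.44, NKX2-1 between 4.67 and 4.84, SFTPC between 3.99 and 4.62 and NAPSA between 3.72 and 4.52. Of the leukocyte list, CD14 (4.89 to 5.81) and CD68 (8.42 to 9.15) were measured. The endothelial markers were VWF (4.17 to 4.43), PECAM1 (3.02 to 3.79) and KDR (2.92 to 3.18), and the fibroblast marker DCN lay between 1.72 and 2.28. The values carry no detection call and differ by probe, so no marker can be called absent and the lists do not settle the cell type.

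The spliceosome removes introns from pre-mRNA in steps. Small nuclear ribonucleoproteins, each a small RNA with a ring of Sm proteins and further partners, recognise the splice sites, and PRPF proteins help to assemble and activate the complex. SR proteins mostly promote the use of nearby splice sites and hnRNPs often oppose it. CLK kinases in the nucleus and SRPK kinases, largely in the cytoplasm, phosphorylate the arginine-serine stretches of SR proteins and so set where and how these act. Heat shock is known to dephosphorylate SR proteins and to inhibit splicing, and a pool of CLK1 pre-mRNA with retained introns is known to be spliced after such stress. The array gives a single value per gene, so spliced and intron-retaining transcripts are not told apart here.

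After 44 °C against 37 °C, CLK1 had the largest change of the 95 genes, and few of the others moved. Of the 95, 6 were called higher (6.32%, where 3.57% of all genes were called higher) and 2 lower (2.11%, against 2.54% of all genes). The median log2 difference was 0.01, against -0.04 over all genes. It lay between -0.04 and 0.02 over the alternatives. After 41.5 °C, 4 were called higher (4.21%, against 2.18% of all genes) and 1 lower (1.05%, against 1.1% of all genes), with a median of 0.09 against -0.00 over all genes. Between the heats the difference was wider: at 44 °C against 41.5 °C, 18 of the 95 were lower (18.9%, against 7.23% of all genes) and 7 higher (7.37%, against 4.9%), with a median of -0.11 against -0.02. With genes below the median level left out, calls were more frequent. Of the 7442 genes then kept, 1153 were lower and 628 higher in that comparison. In all, 30 of the 95 were called in some comparison of temperatures (31.6%, against 14.8% of all genes) and 65 in none. However, 83 of the 95 lay at or above the median level of all genes. The shares of all genes given here and below therefore come from a set with more low-level genes, and were not matched for level.

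**Figure D1:**
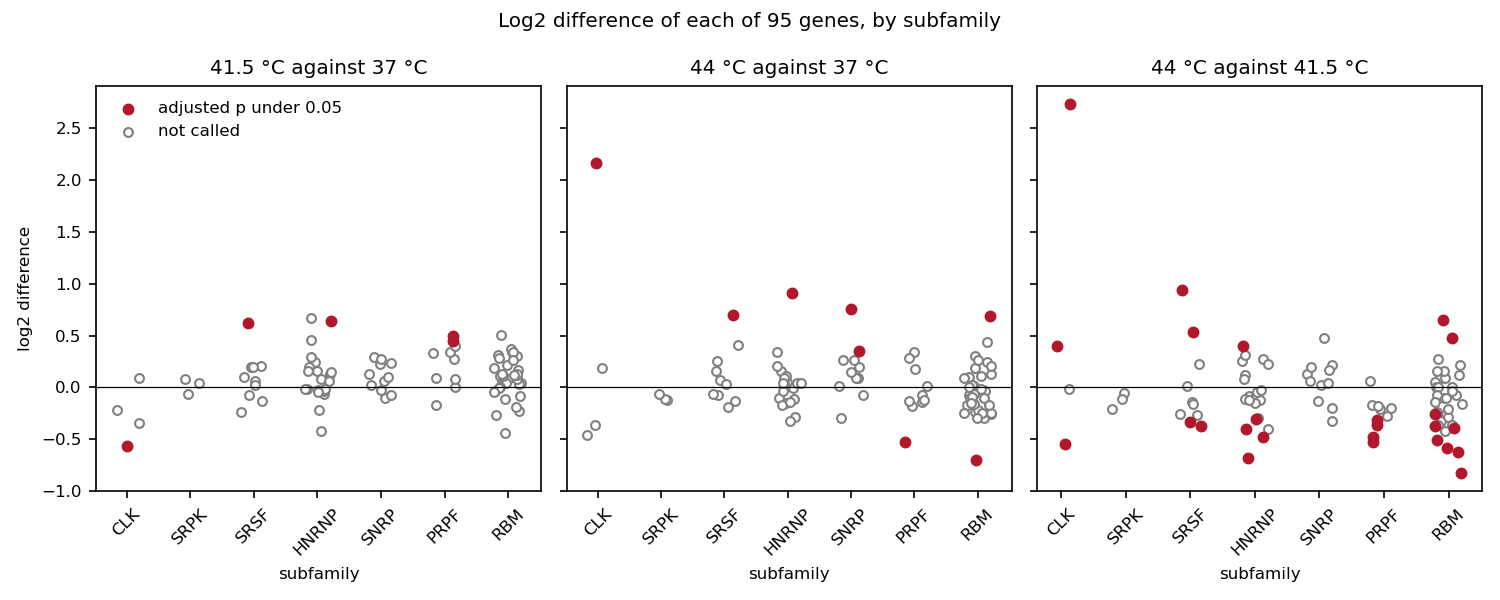
Each point is the log2 difference of 1 gene in the additive model, for 41.5 °C against 37 °C, 44 °C against 37 °C and 44 °C against 41.5 °C, with the 7 subfamilies along the horizontal axis and filled points called at an adjusted p under 0.05. CLK1 stands at 2.16 and 2.72 in both comparisons of 44 °C, and the 18 genes lower at 44 °C than at 41.5 °C belong to the CLK, SRSF, HNRNP, PRPF and RBM subfamilies.

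The CLK kinases did not move together. CLK1 had a log2 level of 7.68 with and 7.49 without radiation at 37 °C, 6.87 with and 7.17 without at 41.5 °C, and 9.71 with and 9.78 without at 44 °C. Both 41.5 °C arrays lay below and both 44 °C arrays far above the 37 °C arrays. At 44 °C against 37 °C, CLK1 rose 4.48-fold, a log2 difference of 2.16 ± 0.11 (SE, 2 arrays for each of the temperatures, limma's adjusted p = 1.37e-06), which put it at rank 28 of 14884 genes. At 41.5 °C it fell by 0.56 ± 0.11 (adjusted p = 0.022). That fall was lost without the control array (adjusted p = 0.0714), the irradiated array (0.352) or the combined 41.5 °C array (0.142). Between the heats CLK1 was 6.61-fold higher at 44 °C (adjusted p = 4.03e-07, rank 9 of 14884).

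CLK2 had a log2 level of 5.83 with and 6.29 without radiation at 37 °C, 6.12 with and 6.17 without at 41.5 °C, and 5.67 with and 5.53 without at 44 °C. It was lowest on both 44 °C arrays, by 0.54 ± 0.15 against 41.5 °C (adjusted p = 0.0367), whereas its value against 37 °C, -0.46 ± 0.15, was not called (adjusted p = 0.104). CLK3 was at 7.37 with and 6.96 without radiation at 37 °C, 7.03 and 6.88 at 41.5 °C, and 7.43 and 7.28 at 44 °C. The irradiated 37 °C array overlapped the 44 °C arrays, and CLK3 was called only at 44 °C against 41.5 °C (0.40 ± 0.10, adjusted p = 0.0261). CLK4, the closest relative of CLK1, had values of -0.36 ± 0.11 at 44 °C (adjusted p = 0.0868) and -0.35 ± 0.11 at 41.5 °C (adjusted p = 0.127) against 37 °C, both short of a call. The calls of CLK2 and CLK3 between the heats were lost without the 44 °C array (adjusted p = 0.272 and 0.153) or the combined 41.5 °C array (0.176 and 0.177), and that of CLK2 also without the 41.5 °C array (0.0742).

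None of the 3 SRPK kinases was called in limma in any comparison. Over all genes, 14.8% were called in some comparison of temperatures and 0.0% with radiation. With 3 genes, the lack of a call is near those shares and does not set the SRPK kinases apart. SRPK1 had differences of -0.12 ± 0.09 at 44 °C and 0.08 ± 0.09 at 41.5 °C against 37 °C. SRPK2 had -0.11 ± 0.11 and -0.06 ± 0.11, and the muscle kinase SRPK3 had -0.07 ± 0.16 and 0.05 ± 0.16. Their lowest adjusted p was 0.203, and 1 unadjusted p was under 0.05, for SRPK1 with radiation.

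**Figure D2:**
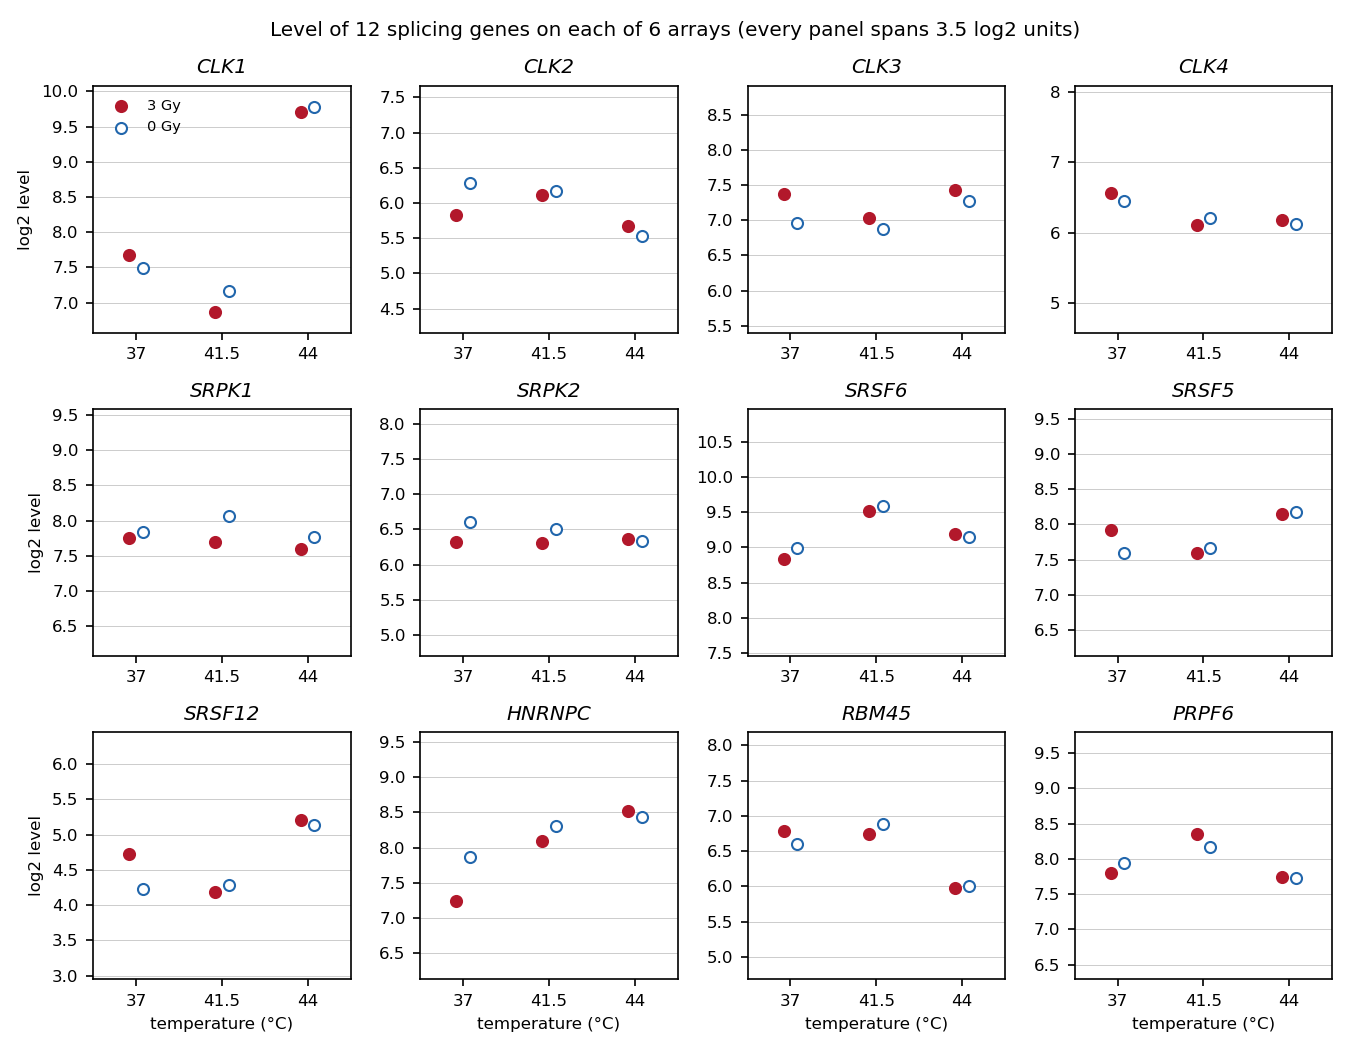
Log2 level of 12 genes on each of the 6 arrays by temperature, with filled points for arrays with 3 Gy and open points for arrays without. CLK1 lies at 9.71 and 9.78 at 44 °C with and without radiation and at or below 7.68 on the other 4 arrays, and SRSF6 is highest on both 41.5 °C arrays.

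Promoter sequence of these genes was searched for letters of the heat shock element, the binding site of HSF1. The short motifs were GAANNTTC and TTCNNGAA, each its own reverse complement, so that both strands are covered. The long motif, the heat shock element of 3 units, joins them with a shared middle unit, in either order, and so contains both. In the 250 bases before the start in the RefSeq promoter table (GRCh38.p14), 10 of the 86 genes with an entry held a short motif (11.6%), as did 9.66% of the 10749 array genes with an entry and 11.7% of all 27305 promoters of the table. A long motif was found in 2 of the 86, HNRNPA2B1 and RBM23 (2.33%, against 0.419% of those array genes and 0.439% of the table). The 4 upstream regions are shown because CLK1 had the largest rise, HNRNPC is called at both heats and holds a short motif, and the other two hold the long motif. Capitals mark motif letters, and a match is a description, not evidence of binding.
CLK1 (chr2:200864659-200864908, minus strand): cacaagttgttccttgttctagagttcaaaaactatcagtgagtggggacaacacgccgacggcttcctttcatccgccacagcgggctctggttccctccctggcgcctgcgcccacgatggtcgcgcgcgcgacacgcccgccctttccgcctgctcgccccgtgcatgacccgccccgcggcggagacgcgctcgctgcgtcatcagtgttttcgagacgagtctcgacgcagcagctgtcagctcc
HNRNPC (chr14:21269443-21269692, minus strand): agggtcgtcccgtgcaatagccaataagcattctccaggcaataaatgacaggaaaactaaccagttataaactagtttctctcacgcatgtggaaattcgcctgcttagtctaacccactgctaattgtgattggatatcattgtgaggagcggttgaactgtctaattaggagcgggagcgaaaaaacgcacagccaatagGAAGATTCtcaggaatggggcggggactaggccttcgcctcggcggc
HNRNPA2B1 (chr7:26200747-26200996, minus strand): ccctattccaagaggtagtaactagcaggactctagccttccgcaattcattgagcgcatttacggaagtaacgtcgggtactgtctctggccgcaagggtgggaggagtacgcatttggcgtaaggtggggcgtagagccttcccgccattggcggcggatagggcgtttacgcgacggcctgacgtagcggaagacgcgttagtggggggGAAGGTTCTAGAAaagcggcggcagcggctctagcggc
RBM23 (chr14:22919150-22919399, minus strand): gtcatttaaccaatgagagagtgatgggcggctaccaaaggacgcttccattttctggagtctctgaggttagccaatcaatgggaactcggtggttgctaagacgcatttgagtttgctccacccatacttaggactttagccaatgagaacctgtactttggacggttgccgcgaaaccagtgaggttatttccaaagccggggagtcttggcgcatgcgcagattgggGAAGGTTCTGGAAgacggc
CLK1 holds none of these motifs in its window. The HNRNPC match runs from base 47 to base 40 before the start, that of HNRNPA2B1 from base 38 to 26 and that of RBM23 from base 19 to 7. RBM23, which was picked after its values were seen, had a difference of 0.30 ± 0.09 at 44 °C against 37 °C, short of a call (adjusted p = 0.0703). HNRNPA2B1 had 0.34 ± 0.10, also not called (adjusted p = 0.0803). Of the other genes with a short motif, HNRNPC and SNRPE were called higher in that comparison. SNRPA1 (0.19), SNRPC (-0.08), SRSF8 (-0.06), RBM12 (-0.07), RBM28 (-0.16) and RBM47 (-0.17) were not called. At 44 °C against 41.5 °C, RBM28 (-0.51) and RBM12 (-0.26) were called lower and HNRNPA2B1 (0.40) higher.

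Among the SR proteins, mild heat went with more SRSF6 and severe heat with more SRSF12. SRSF6, a regulator of exon inclusion, had a log2 level of 8.84 with and 8.99 without radiation at 37 °C, 9.51 with and 9.58 without at 41.5 °C, and 9.19 with and 9.14 without at 44 °C. The 41.5 °C arrays were highest and did not overlap the others. SRSF6 rose 1.54-fold at 41.5 °C (0.62 ± 0.08, adjusted p = 0.00332), a call lost without the control (adjusted p = 0.0644) or the irradiated array (0.178). Its value at 44 °C was 0.25 ± 0.08 (adjusted p = 0.093), and it was lower there than at 41.5 °C, by 0.37 ± 0.08 (adjusted p = 0.0117).

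SRSF12, a protein that counteracts other SR proteins, was at 4.72 with and 4.23 without radiation at 37 °C, 4.19 with and 4.29 without at 41.5 °C, and 5.21 with and 5.14 without at 44 °C. Both 44 °C arrays were above the other 4. SRSF12 rose 1.62-fold at 44 °C against 37 °C (0.70 ± 0.17, adjusted p = 0.04), which was no longer called when any of the 4 arrays at these temperatures was left out (adjusted p up to 0.403, without the control). Against 41.5 °C it was 1.91-fold higher (adjusted p = 0.00649).

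SRSF5, whose transcript is known to respond to growth signals, was at 8.15 with and 8.18 without radiation at 44 °C, against 7.60 with and 7.66 without at 41.5 °C. It was higher at 44 °C by 0.53 ± 0.11 (adjusted p = 0.00937), and its 37 °C levels, 7.92 with and 7.59 without radiation, straddled the 41.5 °C pair. Against 37 °C its value of 0.41 was at the threshold but not called (adjusted p = 0.0502). SRSF1, the founding SR protein, was lower at 44 °C than at 41.5 °C by 0.33 ± 0.08 (adjusted p = 0.0174) and was singled out here after its values were seen. SRSF11 had the lowest SR value at 44 °C against 37 °C, -0.19 ± 0.12 (adjusted p = 0.432). Of the 10 SRSF genes, 1 was higher and 0 lower at 44 °C, and 1 higher and 0 lower at 41.5 °C, each against 37 °C. Each single gene is 10.0% of the subfamily, where 3.57% of all genes were higher at 44 °C and 2.18% at 41.5 °C. Unadjusted p-values under 0.05 numbered 3 and 4, where 3054 and 2545 of all 14884 genes had them.

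HNRNPC, which binds uridine tracts and keeps cryptic exons out of mRNA, was the only gene of the 95 called higher at both temperatures against 37 °C. These comparisons share the 37 °C arrays. Its log2 level was 7.25 with and 7.87 without radiation at 37 °C, 8.10 with and 8.31 without at 41.5 °C, and 8.52 with and 8.43 without at 44 °C. All 4 heated arrays were above both 37 °C arrays, which differed from each other by 0.62, the widest gap between those 2 arrays among the 95 genes. HNRNPC rose 1.88-fold at 44 °C (0.91 ± 0.14, adjusted p = 0.00303) and 1.56-fold at 41.5 °C (0.64 ± 0.14, adjusted p = 0.0323). Without the irradiated array, which had the lowest level, neither was called (adjusted p = 0.0764 at 44 °C and 0.41 at 41.5 °C), and the call at 41.5 °C was also lost without any other array of these temperatures (0.0529 to 0.107). Sequence relatives exist, HNRNPCL1 and HNRNPCL2 among them, and can share probe signal.

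Other hnRNPs differed between the heats. HNRNPA1, a repressor of splice sites, was at 8.17 with and 7.89 without radiation at 44 °C, against 8.49 with and 8.51 without at 41.5 °C, lower by 0.48 ± 0.10 (adjusted p = 0.0122). HNRNPF, which binds guanine runs, was at 9.15 with and 9.16 without radiation at 44 °C, against 9.55 on both 41.5 °C arrays. It was lower by 0.40 ± 0.07 (adjusted p = 0.00559), and this call held without any single array. HNRNPA2B1, which also binds N6-methyladenosine marked RNA, went the other way. Its level was 9.89 with and 9.78 without radiation at 44 °C, against 9.26 with and 9.60 without at 41.5 °C, higher by 0.40 ± 0.10 (adjusted p = 0.0276).

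The HNRNPA2B1 call was lost without the combined 41.5 °C array (adjusted p = 0.248), the combined 44 °C array (0.238) or either 37 °C array, and after centring each array on its median (0.0565). HNRNPA1L2, a near copy of HNRNPA1 whose signal may not be separable from it, was lower at 44 °C than at 41.5 °C by 0.67 ± 0.18 (adjusted p = 0.0339), with a value of -0.00 at 44 °C against 37 °C (adjusted p = 0.997). Its level was low, at 3.17 with and 3.53 without radiation at 44 °C, against 4.07 with and 3.98 without at 41.5 °C. The difference between the heats lay between -0.87 and -0.48 over the alternatives. Of the 21 HNRNP genes, 1 rose (4.76%, against 3.57% of all genes) and 0 fell at 44 °C against 37 °C, with 12 positive values. Among those not called, HNRNPLL, a regulator of CD45 splicing in lymphocytes, had the lowest value at 41.5 °C, -0.41 (adjusted p = 0.0778), and HNRNPCL2 the lowest at 44 °C, -0.33 (adjusted p = 0.47).

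Of the 11 SNRP genes, 2 rose (18.2%, against 3.57% of all genes) and 0 fell (2.54% of all genes) at 44 °C against 37 °C, with a median of 0.14 against -0.04 over all genes. SNRPE, an Sm ring protein with many processed copies in the genome, was at 6.59 with and 6.26 without radiation at 44 °C, against 5.66 with and 5.69 without at 37 °C. The pairs did not overlap and SNRPE rose 1.68-fold (0.75 ± 0.17, adjusted p = 0.0251). The second SNRPE feature on the array was at 5.12 with and 5.11 without radiation at 44 °C, against 5.27 with and 4.90 without at 37 °C, and with both features averaged the call was lost (adjusted p = 0.137). It was lost too without the control (0.286), the irradiated (0.219) or the combined 44 °C array (0.173). SNRPA, protein A of the U1 particle, was at 8.87 with and 8.89 without radiation at 44 °C, against 8.46 with and 8.61 without at 37 °C.

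SNRPA rose by 0.35 ± 0.09 (adjusted p = 0.0399). It was not called when any of these 4 arrays was left out (adjusted p up to 0.357), nor after a further quantile normalization (0.07) or median centring (0.0751). At 41.5 °C, 0 of the 11 were called in limma, where 3 unadjusted p-values were under 0.05 (2545 of all 14884 genes). The values ran from -0.10 for SNRPB to 0.29 for SNRPD1. SNRPG, another Sm protein, had the lowest value at 44 °C, -0.30 (adjusted p = 0.314).

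The PRPF genes included rises at 41.5 °C and lower levels at 44 °C than at 41.5 °C. Their median was 0.30 at 41.5 °C against 37 °C and -0.24 at 44 °C against 41.5 °C, against -0.00 and -0.02 over all genes. Of 10 genes, 2 rose at 41.5 °C (20.0%, against 2.18% of all genes) and 4 were lower at 44 °C than at 41.5 °C (40.0%, against 7.23%). PRPF3, a U4/U6 protein, was at 7.58 with and 7.47 without radiation at 41.5 °C, against 6.95 with and 7.12 without at 37 °C. It rose 1.41-fold (0.49 ± 0.10, adjusted p = 0.0233). PRPF38A, needed for spliceosome activation, was at 8.08 on both 41.5 °C arrays, against 7.57 with and 7.69 without radiation at 37 °C. It rose 1.37-fold (0.45 ± 0.10, adjusted p = 0.0373).

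PRPF3 and PRPF38A were no longer called with the 3 Gy array removed (adjusted p = 0.352 and 0.445), nor without the control (0.108 and 0.148) or the combined 41.5 °C array (0.17 and 0.103), and PRPF38A was not called without the 41.5 °C array (0.119). PRPF6, which bridges the U5 and U4/U6 particles, was at 7.74 with and 7.73 without radiation at 44 °C, against 8.36 with and 8.17 without at 41.5 °C. It was lower by 0.53 ± 0.09 (adjusted p = 0.0055). PRPF19, the ubiquitin ligase of the Prp19 complex, was at 7.42 with and 7.29 without radiation at 44 °C, against 7.80 with and 7.86 without at 41.5 °C. It was lower by 0.47 ± 0.09 (adjusted p = 0.00701).

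PRPF39, a partner of the U1 particle, was at 7.39 with and 7.21 without radiation at 44 °C, against 7.89 with and 7.76 without at 37 °C. It was the only PRPF gene that fell at 44 °C (0.53 ± 0.10 on the log2 scale, adjusted p = 0.0109), and that call was lost without the control (0.133), the irradiated (0.192) or the 44 °C array (0.0762). PRPF18, a second-step factor, had the highest PRPF value at 44 °C, 0.34 (adjusted p = 0.104).

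Among the 36 RBM genes, RBM45 and RBM24 moved in opposite directions at 44 °C. RBM45, a protein found in inclusions of motor neuron disease, was at 6.78 with and 6.60 without radiation at 37 °C, 6.75 with and 6.89 without at 41.5 °C, and 5.98 with and 6.01 without at 44 °C. Both 44 °C arrays lay below the other 4. RBM45 fell by 0.70 ± 0.11 at 44 °C against 37 °C (adjusted p = 0.00435), which was not called without the irradiated array (adjusted p = 0.127). Against 41.5 °C it was 1.77-fold lower (adjusted p = 0.00107), which stayed called under all alternatives tried.

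RBM24, a splicing regulator of muscle, was at 6.74 with and 6.34 without radiation at 44 °C, against 5.87 with and 5.84 without at 37 °C. It rose 1.61-fold (0.68 ± 0.12, adjusted p = 0.00853), and the call was lost without the combined 44 °C array (0.0786), the control (0.0819) or the irradiated array (0.173). RBM7, of the complex that hands nuclear RNA to the exosome, was higher at 44 °C than at 41.5 °C by 0.47 ± 0.12 (adjusted p = 0.0331). RBM26 was lower by 0.62 ± 0.12 (adjusted p = 0.00937), RBM28, a nucleolar protein, by 0.51 ± 0.10 (adjusted p = 0.00897) and RBM12B by 0.59 ± 0.11 (adjusted p = 0.00774).

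The second feature of RBM12B was at 3.40 with and 3.47 without radiation at 44 °C, against 3.46 with and 3.03 without at 41.5 °C, and with both features averaged RBM12B was not called (adjusted p = 0.409). At 41.5 °C against 37 °C, 0 of the 36 RBM genes were called in limma. Unadjusted p-values under 0.05 numbered 12 (2545 of all 14884 genes), and 27 values were positive (7333 of all genes). The values ran from -0.44 for RBM47, an epithelial RNA-binding protein, to 0.50 for RBM4, a regulator of alternative exons. RBM4 had a low mean level of 3.02, and its difference was 0.32 with and 0.69 without radiation (limma's adjusted p = 0.201 in the additive model). Besides the genes described, RBM14, RBM17, PRPF4, HNRNPAB and RBM12 were among the 18 lower at 44 °C than at 41.5 °C, by values from -0.39 to -0.26, and are named after their values were seen.

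**Figure D3:**
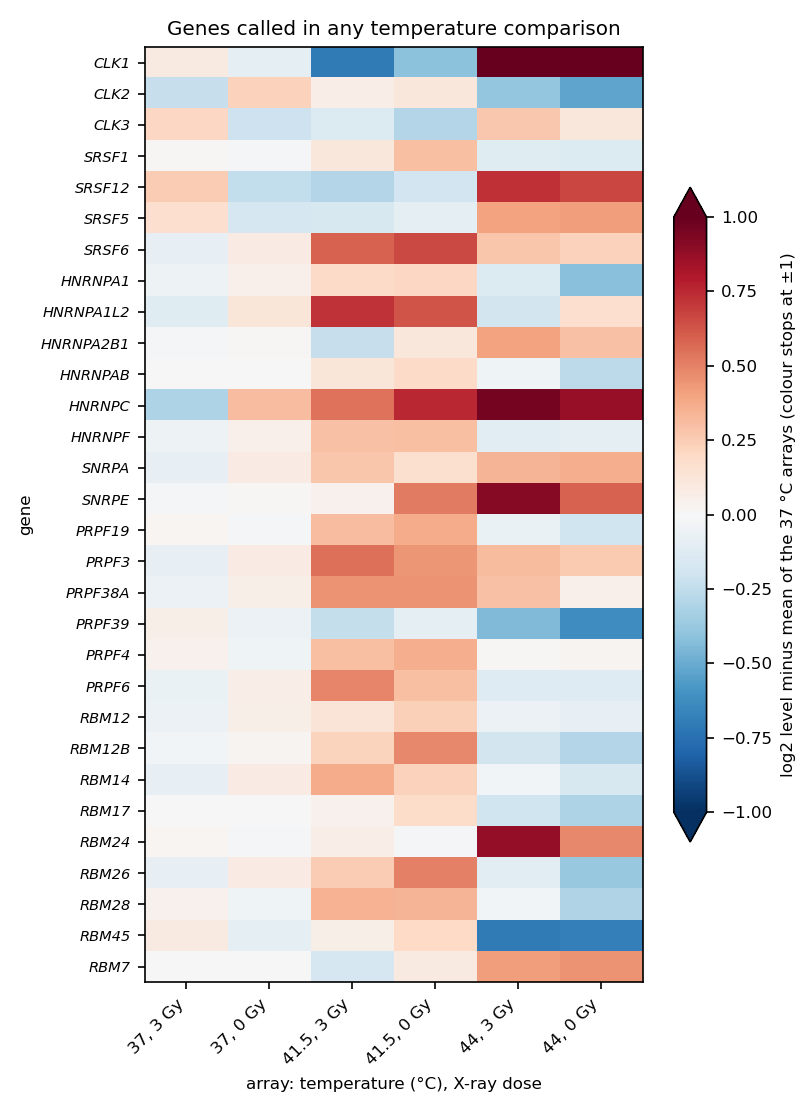
Colour gives the log2 level of the 30 genes called in any comparison of temperatures on each of the 6 arrays, minus the mean of the 37 °C arrays, with red above and blue below it and the scale ending at 1 in each direction. SRSF6, HNRNPA1L2 and HNRNPC are above 0.5 on both 41.5 °C arrays, CLK1, HNRNPC, SRSF12 and SNRPE are above 0.5 on both 44 °C arrays, and RBM45 is at -0.71 with and -0.68 without radiation at 44 °C.

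The arrays without radiation and those with it give 2 comparisons of 44 °C with 41.5 °C that share no array. In 50 of the 95 genes the difference was negative in both (52.6%, against 36.3% of all genes), and in 25 it was positive in both (26.3%, against 29.2%). The median was -0.07 in the irradiated pair and -0.14 in the other, against -0.03 and -0.02 over all genes. The count of 18 lower genes became smaller without the 44 °C array or without the 41.5 °C array, as did that over all genes. Without the 44 °C array the share lower among the 95 was no longer above that of all genes. Without the 41.5 °C array it stayed above. The median of the 95 was -0.08 and -0.06 in these fits. Of the 25 genes called between the heats, CLK1, RBM45 and HNRNPF were called whichever array was left out, and the other 22 were not called without at least 1 array, with adjusted p up to 0.391 for HNRNPAB without the 44 °C array. The 18 became 2 of 95 when the moderation ignored the intensity trend. Over all 14884 genes, 397 were then higher and 394 lower, against 729 and 1076 with the trend. The share lower among the 95 was thus no longer above that of all genes.

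**Figure D4:**
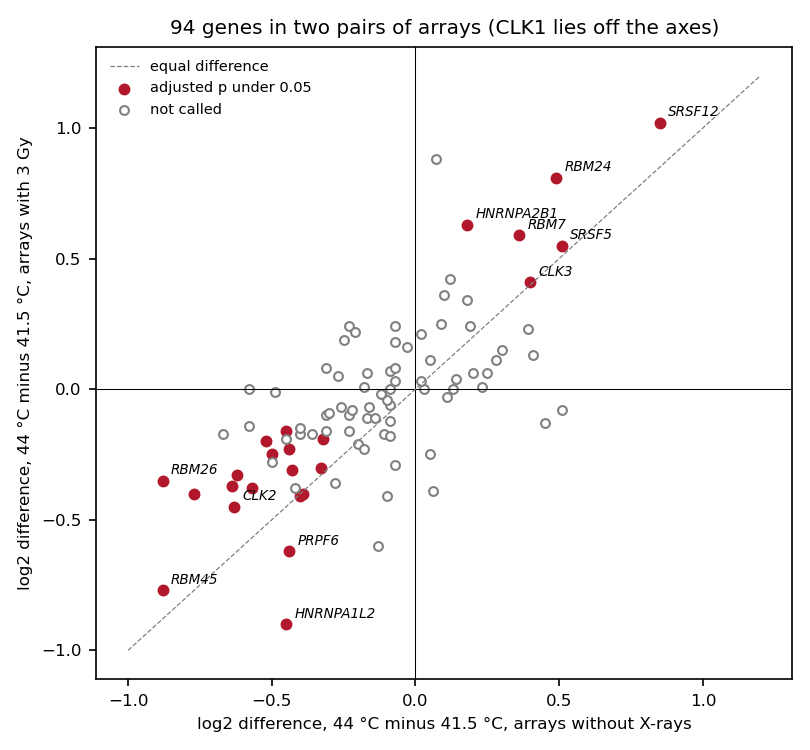
Each point is 1 of 94 genes, with the log2 difference of 44 °C minus 41.5 °C between the arrays without X-rays on the horizontal axis and between the arrays with 3 Gy on the vertical axis. Filled points were called at an adjusted p under 0.05, the dashed line marks equal differences, and CLK1, at 2.61 and 2.84, lies off the axes. Called genes fall in the lower left or upper right, with RBM45 and SRSF12 at the ends. The calls rest on the mean of these same plotted differences, so calling itself favours equal signs. The position of the called genes is therefore no separate check of the calls.

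No change with radiation passed the test. At 3 Gy against 0 Gy, 0 of the 95 were called in limma (0.0% of all genes higher and 0.0% lower). Their unadjusted p-values under 0.05 numbered 3 (733 of all 14884 genes), and their lowest adjusted p was 0.855. Moderation without the trend also called 0. Over all genes the count of 0 rests on the arrays used: 40 were higher and 45 lower without the 44 °C array, and the same counts were found without the combined 44 °C array. The differences ran from -0.25 for HNRNPC to 0.24 for CLK3, with a median of 0.00. The CLK1 value was -0.06 ± 0.09.

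Splicing genes that the symbol rule leaves out were read from a fixed list of 178 genes in 8 roles, of which 123 were measured. LSm proteins had 0 measured genes and are not analysed here. Among 23 SR-related proteins, 2 rose (8.7%, against 3.57% of all genes) and 1 fell (4.35%, against 2.54%) at 44 °C against 37 °C, with a median of -0.02 against -0.04 over all genes. RSRC2, an arginine-serine rich protein, rose 2.42-fold: its level was 9.07 with and 8.91 without radiation at 44 °C, against 7.70 with and 7.73 without at 37 °C (1.27 ± 0.10, adjusted p = 3.4e-05). TRA2B, an exon-inclusion factor whose own transcript is controlled by splicing, rose 1.42-fold (adjusted p = 0.0113). LUC7L, a relative of a yeast U1 protein, fell by 0.74 ± 0.09 (adjusted p = 0.001).

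At 44 °C against 41.5 °C, 3 of the 23 SR-related genes were higher, RSRC2 (1.54), RSRP1 (0.55) and SCAF11 (0.38), and 3 were lower, LUC7L (-0.66) and the speckle scaffolds SRRM2 (-0.35) and SON (-0.35). Each 3 are 13.0% of the list, where 4.9% of all genes were higher and 7.23% lower. At 41.5 °C against 37 °C 0 were called, with 6 unadjusted p-values under 0.05 (2545 of all 14884 genes).

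Among 23 Prp19 complex and catalytic step factors, 3 rose (13.0%, against 3.57% of all genes) and 1 fell (4.35%, against 2.54%) at 44 °C against 37 °C, with a median of -0.14. The rises were CWC25 (0.76 ± 0.09, adjusted p = 5.32e-04), BUD31 (0.73 ± 0.09, adjusted p = 0.001) and SLU7, which helps to choose the 3′ splice site (0.44 ± 0.09, adjusted p = 0.0185). CCDC12 fell by 0.58 ± 0.13 (adjusted p = 0.0279). At 41.5 °C YJU2 alone rose (1.44-fold, adjusted p = 0.0148), which is 4.35% of the list, against 2.18% of all genes. Between the heats the same 3 risers were higher at 44 °C and 6 genes were lower (26.1%, against 7.23% of all genes), the largest differences being those of CCDC12 (-0.78), DHX35 (-0.72), YJU2 (-0.57) and CWC22 (-0.48).

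Of 14 other kinases, phosphatases and carriers of SR proteins, 0 were called in any of the 3 comparisons of temperatures in limma. Each comparison had 4 unadjusted p-values under 0.05. Over all 14884 genes such p-values numbered 3054 at 44 °C and 2545 at 41.5 °C against 37 °C, and 3775 between the heats. Of 27 further regulators, 2 rose at 44 °C against 37 °C, PCBP1 (0.34) and EWSR1 (0.36), and 2 fell, TIA1, a stress granule protein (-0.56), and CIRBP, a cold-inducible RNA-binding protein (-0.44). TIA1 (-0.37) and CIRBP (-0.54) were also lower at 44 °C than at 41.5 °C. Of 12 branch site factors PHF5A rose at 44 °C (0.41, adjusted p = 0.0261), and CHERP (-0.36) and SF1 (-0.32) were lower there than at 41.5 °C. Of 19 U1, tri-snRNP and minor snRNP proteins, SART3 was lower at 44 °C than at 37 °C (-0.37) and at 41.5 °C (-0.34). Of 5 exon junction genes PYM1 fell at 44 °C (-0.67), and CASC3 was lower than at 41.5 °C (-0.47). In these 4 lists, the shares called at 44 °C against 37 °C stand beside 3.57% of all genes higher and 2.54% lower. They were 7.41% higher and 7.41% lower for the regulators, 8.33% and 0.0% for the branch site factors, 0.0% and 5.26% for the snRNP proteins, and 0.0% and 20.0% for the exon junction genes. At 44 °C against 41.5 °C, 7.41%, 16.7%, 5.26% and 20.0% were lower in that order, against 7.23% of all genes. At 41.5 °C against 37 °C these 4 lists had 0 calls, with 3, 3, 2 and 1 unadjusted p-values under 0.05 (2545 of all 14884 genes).

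Many calls in these lists were also lost when a single array was left out, often whichever of several arrays it was. At 44 °C against 37 °C, CWC25 and RSRC2 were called whichever array was left out, and the other 12 calls were lost without at least 1 array, with adjusted p up to 0.337 for EWSR1 without the irradiated array. At 44 °C against 41.5 °C, 10 of 21 were called whichever array was left out, among them RSRC2, LUC7L, CCDC12, DHX35, YJU2 and CIRBP. The adjusted p of the other 11 reached 0.289, for CHERP without the combined 41.5 °C array. The rise of YJU2 at 41.5 °C was lost without any array of these temperatures (adjusted p up to 0.212).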

How the data were processed

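Per the submitters' processing notes, the authors read the arrays with Affymetrix Expression Console 1.1 and summarised them by RMA, giving deposited values on the log2 scale. The build used to design the probes was not given in the sources. The platform annotation names 1 gene for 16098 of 53617 features, all matched to RefSeq (GRCh38.p14). Unnamed features entered only an alternative fit. The feature with the highest mean stood for each of 14884 genes.

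An additive model of temperature and radiation was fitted over the 6 arrays (limma 3.58.1, R 4.3.3), the variances being moderated along an intensity trend with 8.06 prior and 2 residual degrees of freedom, which also hold any interaction. P-values are two-sided. The median standard error was 0.138 between temperatures and 0.113 for radiation, and the number of arrays limits this precision. On simulated data for 44 °C against 37 °C with 14884 genes, 42% of genes changed by 0.5 and 98% of those changed by 1 on the log2 scale were called, and 15 of 185 calls were false. These data had independent normal noise with the model's own moderated variances, and no radiation effect or interaction. They therefore do not measure any spread between cultures.

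Named genes were all CLK and SRPK genes, the 12 highest and 10 lowest called genes per comparison of temperatures, the extremes of each subfamily at 44 °C and 41.5 °C, and at most 4 called genes of each listed role in each direction. The members and lists were chosen with earlier results of these data known. The alternatives were moderation without the trend, further quantile normalization, median centring, leaving out low genes, averaging features, dropping the other factor, fitting all features, and leaving out each array.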

Additional observations from a re-analysis of the deposited data

Results flagged for a closer look

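For 3 genes the model's estimates for both heats against 37 °C had opposite signs, at least 1 of them called, and the difference between the heats was itself called in limma. CLK1 was higher at 44 °C than at 41.5 °C by 2.72 on the log2 scale, with 2.16 at 44 °C and -0.56 at 41.5 °C against 37 °C. SRSF12 was higher by 0.94, with 0.70 and -0.24. RBM45 was lower at 44 °C, the difference being -0.82, with -0.70 and 0.13. The values at 41.5 °C of SRSF12 (adjusted p = 0.562) and RBM45 (adjusted p = 0.639) were not called. Their sign also differed by pair of arrays. SRSF12 had 0.06 without and -0.53 with radiation, and RBM45 had 0.29 without and -0.03 with it. With 1 array in each group, no array could be compared with others of its own group.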

How the results depend on the processing

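No paired analysis was possible because each group has 1 array and the labels give no replicate numbers to pair. Of the counts of called genes among the 95, those for radiation stayed at 0 under every alternative run. Over all genes up to 40 were higher and 45 lower with either of the 44 °C arrays left out, which gives the same fit of radiation. With moderation that ignored the trend, 1 gene of the 95 was higher and 1 lower at 44 °C against 37 °C, 0 and 0 at 41.5 °C, and 3 and 2 at 44 °C against 41.5 °C. Over all 14884 genes these counts were 311 and 94, 8 and 1, and 397 and 394. In a fit of all 53617 features, the counts among the 95 were 2 and 1, 0 and 0, and 1 and 2. Over all 14884 genes they were 291 and 88, 12 and 2, and 306 and 330. With genes below the median level left out, 8 of the remaining 83 were higher and 3 lower at 41.5 °C against 37 °C, beside 452 and 248 of all 7442 genes kept. Leaving out each array in turn gave 1 to 9 higher and 0 to 5 lower at 44 °C against 37 °C, 0 to 9 and 0 to 1 at 41.5 °C, and 2 to 9 and 3 to 18 at 44 °C against 41.5 °C. Without the irradiated array, 1 and 0 genes were called at 44 °C and 0 and 0 at 41.5 °C. CLK1 at 44 °C against either temperature and RBM45 at 44 °C against 41.5 °C were called under all alternatives, and HNRNPF at 44 °C against 41.5 °C without any single array. Over the named genes, 136 values lost and 32 gained a call under an alternative, 1732 kept their side of the threshold, and no called value changed sign. The median of the 95 genes lay between -0.17 and -0.06 at 44 °C against 41.5 °C over the alternatives, and between 0.06 and 0.16 at 41.5 °C against 37 °C. The causes were not tested.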

Other observations

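Of the 95 genes, 12 had a mean level below 5.39, the median over all named genes. They include RBM4, RBM11, RBM44, RBM46, HNRNPCL1 and SRPK3. SRSF12 and HNRNPA1L2 were the only ones of the 12 called in any comparison, a share near the 14.8% of all genes called in some comparison of temperatures.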
